A study of Mus musculus with 14 samples.

Results

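The genes described here encode subunits of the oxidative phosphorylation complexes of mitochondria, measured in mouse embryo fibroblasts with and without the transcription factor p53. They were chosen by symbol alone: all listed genes whose names begin with Ndufa, Ndufb, Ndufc, Ndufs or Ndufv and a number, the 4 Sdh genes, names beginning with Uqcr, the Cox4 to Cox8 genes that carry a number or an i after the subunit letter, and the Atp5 genes with a subunit letter from a to o. The rule took 74 of the 20207 genes in the files. It took 37 genes of complex I, 4 of complex II, 7 of complex III, 10 of complex IV and 16 of complex V (the ATP synthase). It leaves out subunits with other symbols, such as Cox5a, Cox5b, Cox6c, Cox7c, Cox8a and Ndufab1, which are taken up at the end. Of the 74 genes, 71 had at least 1 CPM (reads scaled to a library of 1000000) in at least 2 libraries and were tested, and Atp5g1, Cox7b2 and Ndufs5 were not.

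Primary fibroblasts of strain 129/Sv, wild type or p53-/- (here called p53-null), were left untreated or given 0.2 µg/ml doxorubicin, a DNA-damaging topoisomerase poison, for 6 h. RNA was sequenced from the 3' ends of poly(A) transcripts in 10 libraries, 3 untreated wild type, 3 treated wild type, 2 untreated p53-null and 2 treated p53-null. The study asked which genes respond to DNA damage in each genotype and which differ between the genotypes without treatment. The labels do not say whether replicates came from separate embryos, so the p-values here cover variation among the sequenced libraries only. Sex-linked reads, given below, differ between libraries of the same group.

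Oxidative phosphorylation passes electrons from NADH through complex I, or from succinate through complex II, to ubiquinone, then through complex III and cytochrome c to complex IV, which reduces oxygen. The protons pumped by complexes I, III and IV drive complex V, which makes ATP. Most subunits are encoded in the nucleus and are described here, while a core set is encoded in mitochondrial DNA. Several complex IV subunits exist as a widely expressed isoform and a partner restricted to testis, muscle or lung, and p53 is known as a regulator of some genes of mitochondrial metabolism.

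Depth was 9768307 to 11770448 reads per wild-type library. It was 18099507 to 25970157 reads per p53-null library, so depth and genotype cannot be told apart. Trp53, which encodes p53, had 20.1 to 43.5 CPM in wild-type and 29.5 to 74.3 CPM in p53-null libraries. Reads at the 3' end may lie outside the deleted part of the gene, so this value does not check the labels. Cdkn1a, the cell cycle inhibitor induced by p53, stood at 559 to 755 CPM in untreated and 4075 to 5099.5 CPM in treated wild type, against 29.3 to 53.9 CPM in p53-null cells. All 12 fibroblast markers were tested, with summed levels of 3154 to 7314 CPM. Macrophage markers (9 of 12 tested) summed to 99.1 to 537 CPM in untreated wild type, 45.3 to 240 CPM in treated wild type, and 84.0 to 124 CPM in p53-null libraries. Reads of 4 Y-linked genes numbered 166 and 147 in the wild-type libraries numbered 1, which also had 82 and 110 reads of Xist. The other wild-type libraries had at most 9 Y-linked reads and 86 to 263 reads of Xist. The p53-null libraries numbered 2 went against their shared number, with 216 Y-linked reads untreated and 15 treated (Xist 15 and 399 reads), while those numbered 1 had 207 and 136.

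Promoter sequences are shown for the gene that moved most with doxorubicin, for its widely expressed partner, and for the other gene that passed the test in treated wild type. They are the 250 bases before the transcription start in RefSeq on build GRCm38.p6, 5′ to 3′ on the strand of the gene. The files themselves use mm9, and no coordinate of theirs is printed. Cox6b2 lies at chr7:4753095-4753344 on the minus strand, Cox6b1 at chr7:30626115-30626364 on the minus strand and Ndufb4 at chr16:37654369-37654618 on the minus strand. Capitals mark matches on either strand to 5 motifs of promoters, and none of the marked matches overlap. The CCAAT box was searched by its own letters. The box read by SP1 was searched as GGGCGG and the site read by ETS factors as CCGGAAG. For the factor YY1 the letters searched were AAGATGGC. The NRF1 motif was searched as GCGC followed, after any single base, by TGCGC.
Cox6b2: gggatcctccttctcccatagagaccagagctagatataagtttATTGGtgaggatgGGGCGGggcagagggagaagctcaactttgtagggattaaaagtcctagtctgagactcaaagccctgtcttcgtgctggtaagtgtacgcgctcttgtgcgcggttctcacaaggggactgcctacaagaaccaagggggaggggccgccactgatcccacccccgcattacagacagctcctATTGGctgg
Cox6b1: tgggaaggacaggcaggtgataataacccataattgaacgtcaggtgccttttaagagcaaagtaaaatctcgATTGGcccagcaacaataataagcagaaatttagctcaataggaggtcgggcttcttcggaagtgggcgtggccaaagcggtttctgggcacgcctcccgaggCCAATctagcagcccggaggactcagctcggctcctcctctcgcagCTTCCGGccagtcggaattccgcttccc
Ndufb4: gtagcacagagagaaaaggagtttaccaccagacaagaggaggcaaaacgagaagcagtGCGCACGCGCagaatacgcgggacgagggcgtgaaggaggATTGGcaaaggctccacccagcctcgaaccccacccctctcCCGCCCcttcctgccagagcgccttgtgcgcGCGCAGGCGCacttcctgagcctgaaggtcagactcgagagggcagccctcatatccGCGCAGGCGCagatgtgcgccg
The Cox6b2 stretch holds CCAAT and SP1 matches, that of Cox6b1 CCAAT and ETS matches, and that of Ndufb4 CCAAT and SP1 matches with 3 matches to NRF1. None of the 3 holds a match to the p53 half-site.

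A window of 300 bases (250 before the start and 50 after) was found for 60 of the 74 genes. Of these, 17 (28.3%) hold the NRF1 motif, against 5.19% of the windows of all 27025 genes. YY1 matches stood in 10 windows (16.7%, against 3.19%) and ETS matches in 15 (25%, against 9.93%). SP1 (26 windows, 43.3% against 38.2%) and CCAAT (26 windows, 43.3% against 41.1%) were near the share of all genes. The p53 half-site matched in the windows of Atp5j, Ndufb2 and Ndufs4 (5%, against 9.55% of all genes). A match is a run of letters and not a measured binding site.

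In wild-type cells, 2 subunit genes rose with doxorubicin and 0 fell past the threshold, an adjusted p of 0.05. The larger rise was that of Cox6b2, the testis isoform of a small complex IV subunit that faces the intermembrane space. Cox6b2 had 26.0, 9.62 and 11.8 CPM in untreated wild-type libraries 1, 2 and 3 and 227, 190.1 and 146 CPM in the treated ones. All treated libraries lay far above all untreated ones. The log2 fold was 3.64 (SE 0.36, a 12.4-fold rise, adjusted p = 0.000203, limma-trend with Benjamini-Hochberg adjustment over all tested genes). In reads, this was 105 to 218 per untreated library and 1415 to 2433 per treated library. Germ cell markers summed to at most 0.787 CPM in any library, and 7 of 10, among them Prm1, Prm2, Tnp1 and Dazl, had under 10 reads over all libraries. In bulk RNA, a change in the share of cells and a change in RNA per cell cannot be told apart.

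The second gene was Ndufb4, an accessory subunit of the membrane arm of complex I. Ndufb4 had 7.03, 7.28 and 5.40 CPM in untreated wild type and 12.5, 19.7 and 19.4 CPM in treated wild type. The groups did not overlap, and the log2 fold was 1.31 (SE 0.26, a 2.47-fold rise, adjusted p = 0.00979). Read support was low, at 48 to 434 reads per library. Without both wild-type libraries numbered 3, of which the treated one stands apart for many genes, the log2 fold was 1.09 and did not pass (adjusted p = 0.0836).

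**Figure D1:**
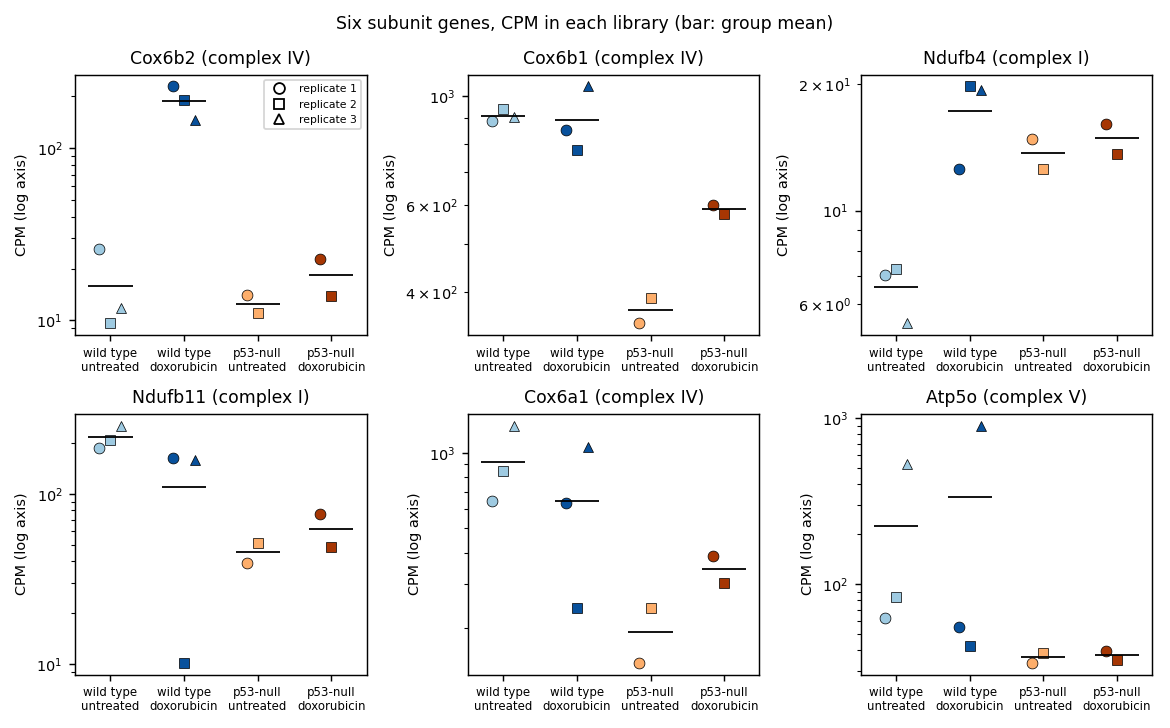
Levels of 6 subunit genes in each of the 10 libraries, in CPM on log axes, by group, with the marker shape giving the replicate number and a bar at the group mean. Cox6b2 is high in the 3 treated wild-type libraries (146 to 227 CPM) and at 9.62 to 26.0 CPM elsewhere, while Ndufb11 and Atp5o show single libraries far from the rest of their group.

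These 2 genes were 2 of the 71 tested (2.82%), while 8.03% of all tested genes were called higher and 4.55% lower. The median log2 fold of the 71 genes was 0.14, against 0.05 over all tested genes, with 45 of 71 above 0 (63.4%, against 53.2% of all tested genes). Treated and untreated libraries did not overlap for 11 genes on the higher side and 2 on the lower, against 17% and 12% of all tested genes. Besides the 2 genes named, those higher were Atp5h, Cox4i1, Ndufa13, Ndufa4, Ndufa4l2, Ndufb6, Ndufc1, Uqcrc2 and Uqcrh, with log2 folds of 0.41 (Uqcrc2) to 1.01 (Ndufb6). The lower ones were Ndufb11 and Ndufs3.

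The counts above come from a fit that did not pair libraries. Replicate numbers were taken as pairs in a second fit, though the wild-type libraries numbered 2 deviated together only weakly. That fit, with the number as a block, called 6 subunit genes higher and none lower (13.6% and 9.64% of all tested genes). The added genes were Ndufb6 (log2 fold 1.01, SE 0.24, adjusted p = 0.0204), Ndufa6 (0.69, SE 0.20, adjusted p = 0.0431), Ndufa4 (0.68, SE 0.20, adjusted p = 0.045) and Atp5c1 (0.53, SE 0.16, adjusted p = 0.0455). Ndufb6 and Ndufa6 are accessory subunits of complex I. Ndufa4 carries a complex I name but is known to sit in complex IV, and Atp5c1 is the gamma subunit that rotates inside the ATP synthase head. Ndufb6 went from 5.84, 5.75 and 6.75 CPM to 9.07, 16.8 and 13.5 CPM, and Ndufa4 from 8.70, 6.47 and 6.86 CPM to 12.6, 12.0 and 11.3 CPM. Both sets were apart, and both are genes of low read support.

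By complex, the extremes in wild type other than Cox6b2 and Ndufb4 did not pass the test, and most rested on 1 library. In complex I the lowest was Ndufb11, an accessory membrane arm subunit, with 186, 207 and 252 CPM untreated and 162, 10.1 and 157 CPM treated (log2 fold -1.72, SE 0.85, adjusted p = 0.224). The second treated library alone, with 109 reads of Ndufb11, set this value, and without it the log2 fold was -0.45.
In complex II, folds ran from -0.28 for Sdhb, the iron-sulfur subunit, to 0.26 for Sdhd, a membrane anchor (adjusted p = 0.557 and 0.699). Both changed sign without the second treated library (0.04 and -0.06).
In complex III they ran from -0.12 for Uqcrq to 1.00 for Uqcrh, the hinge protein (adjusted p = 0.845 and 0.235). Uqcrh had 16.0, 17.5 and 16.6 CPM untreated and 18.3, 22.0 and 96.6 CPM treated, so treated library 3 stood alone, and without it the log2 fold was 0.19.
In complex IV the lowest was Cox6a1, the widely expressed form of subunit VIa, at -0.71 (SE 0.48, adjusted p = 0.378). Its treated libraries had 630.4, 239 and 1053 CPM and overlapped the untreated ones at 640.0, 847 and 1285 CPM, with the second treated library far below the rest.
In complex V folds ran from -0.17 for Atp5f1, a stalk subunit, to 0.93 for Atp5g2, a gene for the rotor ring subunit c (adjusted p = 0.84 and 0.435). Atp5g2 had 8.93, 13.4 and 19.9 CPM untreated and 10.9, 14.6 and 107 CPM treated, and its fold was -0.14 without the third treated library.

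**Figure D2:**
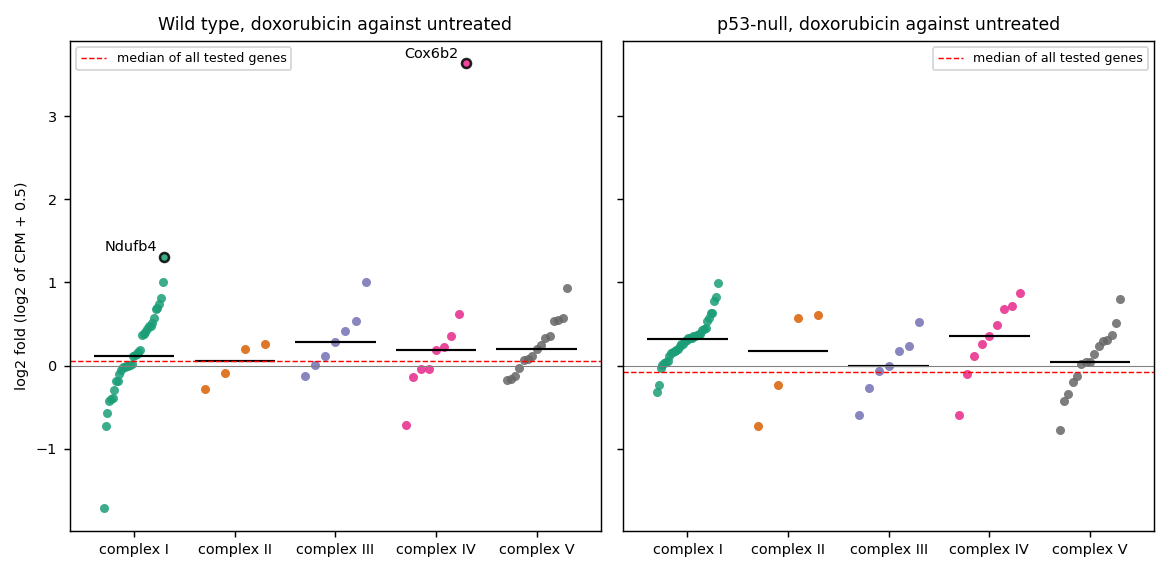
Log2 fold with doxorubicin (CPM + 0.5) of the 71 tested subunit genes by complex, in wild type (left) and p53-null cells (right). Each point is 1 gene, spread sideways by rank, the black bar is the median of the complex, the dashed line the median of all tested genes (0.05 and -0.08), and ringed points passed the test. Cox6b2 and Ndufb4 are the ringed points, and most p53-null points lie above 0.

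In p53-null cells no subunit gene passed the test with doxorubicin, and none of all 11177 tested genes did either (0%), with limma-trend or with limma-voom. At an unadjusted p under 0.05 stood 6 of the 71 genes and 1254 of all genes. Of these 6, 5 were higher after treatment and 1 was lower.
Cox6b1, the widely expressed partner of Cox6b2, had 346 and 390.3 CPM untreated and 600.2 and 577 CPM treated (log2 fold 0.68, SE 0.20, adjusted p = 0.361). Atp5k, a small membrane subunit of complex V, had 373 and 378 CPM and then 758 and 562 CPM (0.80, SE 0.26, adjusted p = 0.361). The others higher were Ndufa7 (0.63), Ndufa8 (0.78) and Ndufs3 (0.63), and Atp5g3 was lower (-0.78, SE 0.33, adjusted p = 0.422).

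The p53-null folds leaned to one side without passing. The median over the 71 genes was 0.26, against -0.08 over all tested genes, and 55 of 71 lay above 0 (77.5%, against 44.7% of all tested genes). The groups did not overlap for 26 genes on the higher side and 8 on the lower, beside 25.3% and 28.4% of all tested genes. Among the 39 genes of at least 50 CPM on average, 37 lay above 0 with a median of 0.37, while 64.1% of all genes at that level did, with a median of 0.15. By complex the medians were 0.32 in complex I, 0.17 in complex II, -0.00 in complex III, 0.36 in complex IV and 0.04 in complex V. Without both p53-null libraries numbered 2, the median was 0.35 and still no gene passed.

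Cox6b2 was the 1 subunit gene whose response differed between the genotypes. In p53-null cells it had 14.0 and 11.1 CPM untreated and 22.7 and 13.9 CPM treated (log2 fold 0.49, SE 0.45), with 252 to 597 reads per library. The wild-type response exceeded this by 3.14 on the log2 scale (SE 0.57, an 8.84-fold difference, adjusted p = 0.0237). This was 1 of 71 genes, while 1.89% of all tested genes differed on this side and 0.447% on the other. The difference kept its sign and stayed between 2.79 and 3.89 over 22 alternatives, and it missed the threshold in 9 of them. Among these, without both p53-null libraries numbered 2 it was 2.96 (adjusted p = 0.285), and with no filter on low levels 3.10 (adjusted p = 0.0519).

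With the replicate block the response difference passed for Cox6b2 (adjusted p = 0.0056), and for Ndufs3 in the other direction, beside 6.32% and 3.31% of all tested genes. Ndufs3 is a core subunit of the complex I arm that takes electrons from NADH towards ubiquinone. Ndufs3 had 296, 289 and 314 CPM in untreated and 276, 209 and 256 CPM in treated wild type. Its p53-null libraries had 102 and 113 CPM untreated and 176 and 157 CPM treated. Neither genotype's treated libraries overlapped its untreated ones, and they lay on opposite sides of them. The blocked difference was -0.91 (SE 0.24, adjusted p = 0.05), and without the block it did not pass (adjusted p = 0.0972). This block pairs the p53-null libraries numbered 2, whose Y-linked reads differ as given above.

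Untreated wild-type and p53-null cells differed at 24 of the 71 subunit genes, 17 higher in wild type and 7 lower. These are 23.9% and 9.86% of the 71, beside 12.8% and 20.4% of all tested genes. The calls thus ran opposite to those of the whole table. Within each read level they leaned to the same side as all genes, as taken up below. Of the subunit genes of at least 50 CPM, 41% were higher and 0% lower, against 28.7% and 7.69% of all genes at that level. Of those under 50 CPM, 3.12% were higher and 21.9% lower, against 8.5% and 23.8%. The median log2 fold (wild type minus p53-null) was 0.32, against -0.09 over all tested genes. Libraries of the genotypes did not overlap for 34 genes on the higher side and 10 on the lower, against 28.8% and 36.1% of all tested genes. Sex-linked reads were not balanced between these groups. Y-linked reads numbered 166, 0 and 2 in untreated wild type and 207 and 216 in untreated p53-null cells. Xist had 82, 86 and 161 reads against 22 and 15. The part of sex in these differences was not tested. The calls rest on 2 p53-null libraries. A fit without either untreated one leaves that group without replicates, and fewer subunit genes passed in it. Without the untreated wild-type library numbered 3, 15 passed. Shares of all tested genes are not given for these fits. Without both p53-null libraries numbered 2, the log2 fold of Ndufs3 was 1.48, and the median was 0.28.

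Complex I held 12 of the 17 higher calls and 2 of the 7 lower ones, with 36 of the 71 tested genes and a median log2 fold of 0.44. These are 33.3% and 5.56% of its genes, against 12.8% and 20.4% of all tested genes. It held 22 of the 39 genes of at least 50 CPM. Of those 22, 50% were higher and 0% lower, against 28.7% and 7.69% of all genes at that level. Complex IV, with 9 tested genes, held 2 higher calls and 0 lower ones (22.2% and 0%), with a median of 0.56. In complex I, Ndufs3 had 296, 289 and 314 CPM in untreated wild type and 102 and 113 CPM in untreated p53-null cells, with no overlap (log2 fold 1.47, SE 0.19, adjusted p = 0.00131). It passed in all 22 alternatives run, with log2 folds of 1.08 to 2.11. Other core subunits that passed were Ndufv2, of the NADH-binding module, at 1.43 (adjusted p = 0.0122), and Ndufs7 at 0.79 (adjusted p = 0.0194).
Ndufv2 had 668, 450.5 and 514 CPM against 205 and 194 CPM. Ndufs7 had 405, 378 and 404 CPM against 249 and 209 CPM. Neither set overlapped.
The accessory subunits that passed were Ndufa8 (1.38), Ndufb8 (1.19), Ndufs6 (1.09), Ndufv3 (0.95), Ndufa9 (0.93), Ndufa7 (0.91) and Ndufa3 (0.80), with adjusted p of 0.00517 to 0.0356. Ndufa4l2, placed with complex I by its symbol only, passed as well (1.13, SE 0.32, adjusted p = 0.0264). Ndufb8 had 439, 424 and 464 CPM against 193 and 193 CPM, and Ndufa8 had 207, 186 and 241 CPM against 72.8 and 88.2 CPM. In the same complex Ndufa12, at 16.3, 20.6 and 13.2 CPM against 37.6 and 45.8 CPM, was lower in wild type (-1.31, SE 0.30, adjusted p = 0.0108), as was Ndufb4 (-1.01, SE 0.29, adjusted p = 0.0254). Ndufb11 had the highest log2 fold of the complex (2.23, SE 0.95), with 186, 207 and 252 CPM against 39.3 and 51.2 CPM, and did not pass (adjusted p = 0.0921). Without the treated wild-type library numbered 2, where it had 10.1 CPM, its fold was 2.24 and passed (adjusted p = 0.000808).

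In the other complexes the calls went both ways. Sdha, the catalytic flavoprotein of complex II, had 4.65, 3.33 and 2.81 CPM in wild type against 8.46 and 11.0 CPM in the p53-null libraries (-1.34, SE 0.34, adjusted p = 0.0173). Its partner Sdhb had 269, 240.2 and 316 CPM against 139 and 157 CPM and missed the threshold (0.88, SE 0.31, adjusted p = 0.0523). In complex III, Uqcrq had 1155, 832 and 1007 CPM against 342 and 340.1 CPM (1.53, SE 0.37, adjusted p = 0.0139), while the core subunit gene Uqcrc2 had 5.12, 3.78 and 4.38 CPM against 10.4 and 10.3 CPM (-1.15, SE 0.27, adjusted p = 0.0123). Uqcrq and Uqcrc2 thus passed on opposite sides within complex III.
In complex IV, Cox6a1 had 640.0, 847 and 1285 CPM against 145 and 240.4 CPM (2.24, SE 0.54, a 4.73-fold difference, adjusted p = 0.0133). Cox6b1 had 888, 939 and 907 CPM against 346 and 390.3 CPM (1.31, SE 0.18, adjusted p = 0.00204). Cox7a2 had the lowest fold of the complex (-0.16, adjusted p = 0.841), and its libraries overlapped.
In complex V, Atp5b, the catalytic beta subunit, had 1759.8, 2772 and 2732 CPM against 1307 and 1245 CPM (0.89, SE 0.24, adjusted p = 0.0207), and Atp5k had 1108, 885 and 828 CPM against 373 and 378 CPM (1.31, adjusted p = 0.00562). The alpha and gamma subunit genes of the same head went the other way. Atp5a1 had 18.2, 23.4 and 17.0 CPM against 44.6 and 50.4 CPM (-1.27, SE 0.31, adjusted p = 0.0142), and Atp5c1 19.2, 27.6 and 20.5 CPM against 44.4 and 46.8 CPM (-1.03, SE 0.26, adjusted p = 0.0169). Atp5g3, a subunit c gene, had 14.5, 10.9 and 13.6 CPM against 32.5 and 33.3 CPM (-1.32, SE 0.30, adjusted p = 0.0109). Atp5o had the highest fold (1.94, SE 1.21) and did not pass (adjusted p = 0.233). Untreated wild-type library 3, at 528 CPM against 62.2 and 83.2 CPM in the others, sets this value, and without it the log2 fold was 0.99 (adjusted p = 0.561). Without both wild-type libraries numbered 3 it was also 0.99 and passed (adjusted p = 0.0326).

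The direction followed read support. Of the 39 tested genes with a mean of at least 50 CPM, a level chosen after the values were seen, 16 were higher in untreated wild type and 0 lower, with a median log2 fold of 0.80. Of the 32 under 50 CPM, 1 was higher (Ndufa4l2) and 7 were lower, with a median of -0.26. The whole table had the same tilt, with 28.7% higher and 7.69% lower among all genes of at least 50 CPM (median 0.41), and 8.5% higher and 23.8% lower among those under it (median -0.29). The p53-null libraries are the deeper ones, and whether depth has a part in the tilt cannot be told apart from genotype. With library size alone as the scaling, 10 subunit genes were higher and 10 lower (4.61% and 29.9% of all tested genes), with a median of -0.07 against -0.43 over all tested genes. Upper quartile scaling gave 13 higher and 7 lower (8.32% and 23% of all tested genes), with a median of 0.14 against -0.24.

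**Figure D3:**
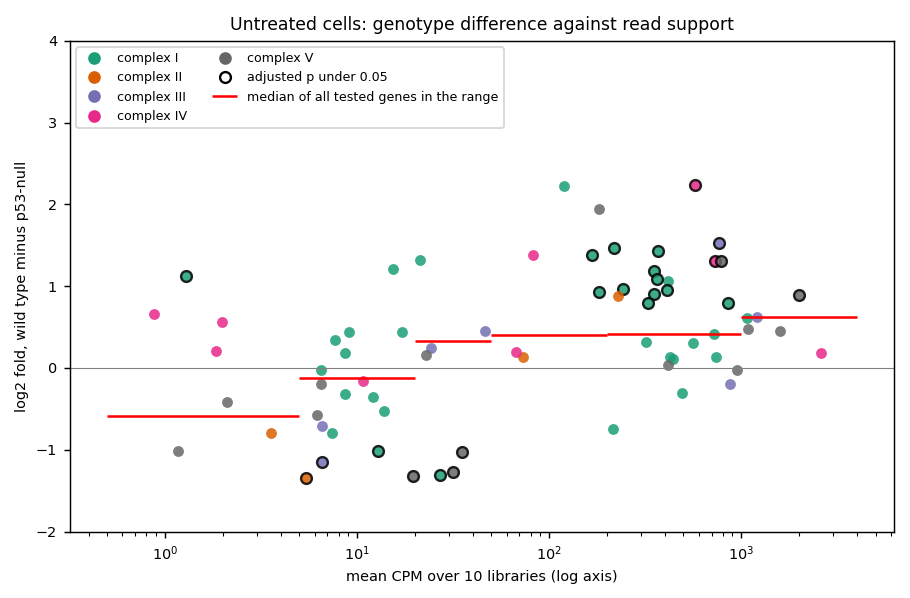
Log2 fold between untreated wild-type and untreated p53-null cells (y axis) against the mean CPM over 10 libraries (x axis, log scale) for the 71 tested subunit genes, coloured by complex, with genes past the threshold ringed. Red bars give the median of all tested genes in each range of CPM. Ringed genes lie above 0 from 50 CPM on and, except for Ndufa4l2, below 0 under it.

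Many of these genes have processed pseudogene copies in the mouse genome, and how reads that match several places were counted is not given in the sources used here. Levels of such genes are therefore uncertain as levels of the parent gene. This holds for the 32 genes under 50 CPM, the 3 not tested and those of at least 50 CPM. The part of such copies in these values was not tested. Genes that overlap another on the opposite strand are uncertain as well, since the strand of the reads is not given.

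Macrophage markers had a summed level of 99.1 to 537 CPM in untreated wild type and 102 to 117 CPM in untreated p53-null cells. Of the 9 tested, 1 (Tyrobp) passed the threshold. None of the 12 listed had under 10 reads over all libraries, though Emr1 had 0 CPM in each untreated wild-type library. Fibroblast markers summed to 3154 to 6699 CPM and 5518 to 5746 CPM, with 6 of 12 lower in wild type. Muscle markers (7 of 14 tested) summed to 157 to 235 CPM and 115 to 155 CPM, with Myh6, Ckm and Myl1 under 10 reads. Their part in the differences between genotypes was not tested.

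After doxorubicin, 3 subunit genes were higher in wild type than in p53-null cells and 1 was lower, beside 6.82% and 5.25% of all tested genes. Cox6b2 was 10.1-fold higher (log2 fold 3.34, SE 0.41, adjusted p = 0.000506) and passed in all 22 alternatives. Ndufa4l2, a relative of Ndufa4 known as a hypoxia-induced gene, had 2.99, 2.42 and 1.96 CPM against 0.531 and 0.346 CPM (1.65, SE 0.32, adjusted p = 0.00921) on 11 to 32 reads per library. Ndufb8 had 418, 339.7 and 543 CPM against 267 and 233 CPM (0.77, SE 0.21, adjusted p = 0.0428) and lost its call in 16 of 22 alternatives. Ndufa1, a small membrane subunit of complex I, had 5.89, 3.63 and 2.27 CPM against 11.9 and 15.4 CPM (-1.75, SE 0.48, adjusted p = 0.0418) and lost its call in 10 of 22.
The median log2 fold was 0.37, against -0.03 over all tested genes, and 53 of 71 lay above 0 (74.6%, against 48.3% of all tested genes). Treated libraries of the genotypes did not overlap for 21 genes on the higher side and 8 on the lower, against 20% and 21.9% of all tested genes. Without treated wild-type library 2, 8 genes passed, all higher. Only 2 passed without treated wild-type library 3 or untreated wild-type library 2. A fit without either treated p53-null library leaves that group without replicates, and fewer subunit genes passed in it. Shares of all tested genes are not given for these fits. Without both p53-null libraries numbered 2, the log2 fold of Cox6b2 was 2.94.

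Summed over its genes, each complex except II had a higher level in every wild-type library than in any untreated p53-null library. Sums are levels in CPM and follow the most abundant reads, since the genes of at least 50 CPM hold 98.2% of the reads of the 74. Complex I genes summed to 11591, 9652 and 10044 CPM in untreated and 11575, 11586 and 9842 CPM in treated wild type. In p53-null cells they summed to 7310 and 6433 CPM untreated and 9934 and 7196 CPM treated.
Complex IV went from 4246 ± 324 CPM (SD, n = 3) untreated to 5409 ± 345 CPM (SD, n = 3) treated in wild type, with no overlap between the groups. Complex V went from 7686 ± 263 CPM to 8347 ± 723 CPM, also with no overlap, though only by the margin between 7863 and 7872 CPM. Complex III went from 3257 ± 575 CPM to 3395 ± 122 CPM, with overlap. The complex IV sum follows Cox4i1, with 2592, 2036 and 2215 CPM untreated and 3432, 4543 and 2694 CPM treated. Cox4i1 did not pass the test (adjusted p = 0.185, limma-trend), and the median log2 fold of the complex was 0.19.
In p53-null cells, the treated libraries numbered 2 and 1 were unlike each other, with complex III at 1921 and 2939 CPM and complex IV at 2602 and 3916 CPM. Complex II was the small one, at 352 ± 31.6 CPM untreated and 312 ± 73.8 CPM treated in wild type, and its p53-null libraries lay at 205 to 344 CPM. With library size alone as the scaling, the untreated sums drew closer, with means of 9354 CPM in wild type and 8123 CPM in p53-null cells for complex I. These sums were not tested.

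**Figure D4:**
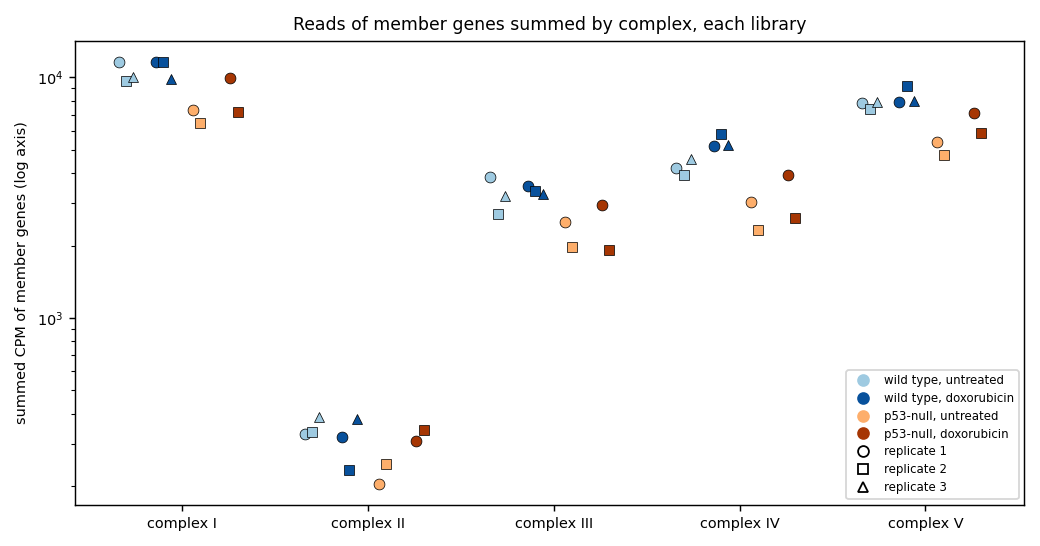
Reads of the subunit genes summed by complex in each library, in CPM on a log axis, with colour for the group and marker shape for the replicate number. In complex V the untreated p53-null libraries (4749.8 and 5385 CPM) are the lowest, and complex II is the lowest sum in every library.

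Single wild-type libraries, treated and untreated, stood apart for some subunit genes, as they did for other tested genes. Counted were genes for which a library was the highest or lowest of its group and at least 2-fold from the mean log2 level of the others. In treated library 3, 8 of the 71 genes were above and 5 below (12.7% and 2.77% of all tested genes). In treated library 2, 2 were above and 8 below (2.42% and 10.6%). Untreated library 1 had 4 above and 7 below (5.99% and 7.78%).
Atp5o, the subunit that ties the stalk to the head of complex V, is the clearest case. It had 62.2, 83.2 and 528 CPM in untreated wild type, 54.9, 42.7 and 902 CPM in treated wild type, and 33.7 to 39.4 CPM in p53-null cells. Both wild-type libraries numbered 3 were high, 1 of them with 8758 reads, and the p53-null libraries showed no such spread.
Ndufb5 (8.41, 12.8 and 74.4 CPM), Ndufb2 (12.7, 13.4 and 87.0 CPM) and Cox7a2l (47.6, 42.3 and 255 CPM) were also high in treated library 3. Ndufa5 (669, 145 and 627 CPM), Ndufv2 (506, 215 and 436 CPM) and Uqcrq (1096, 498 and 1368 CPM) were low in treated library 2. Folds of these genes in treated wild type rest on which library is counted.

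**Figure D5:**
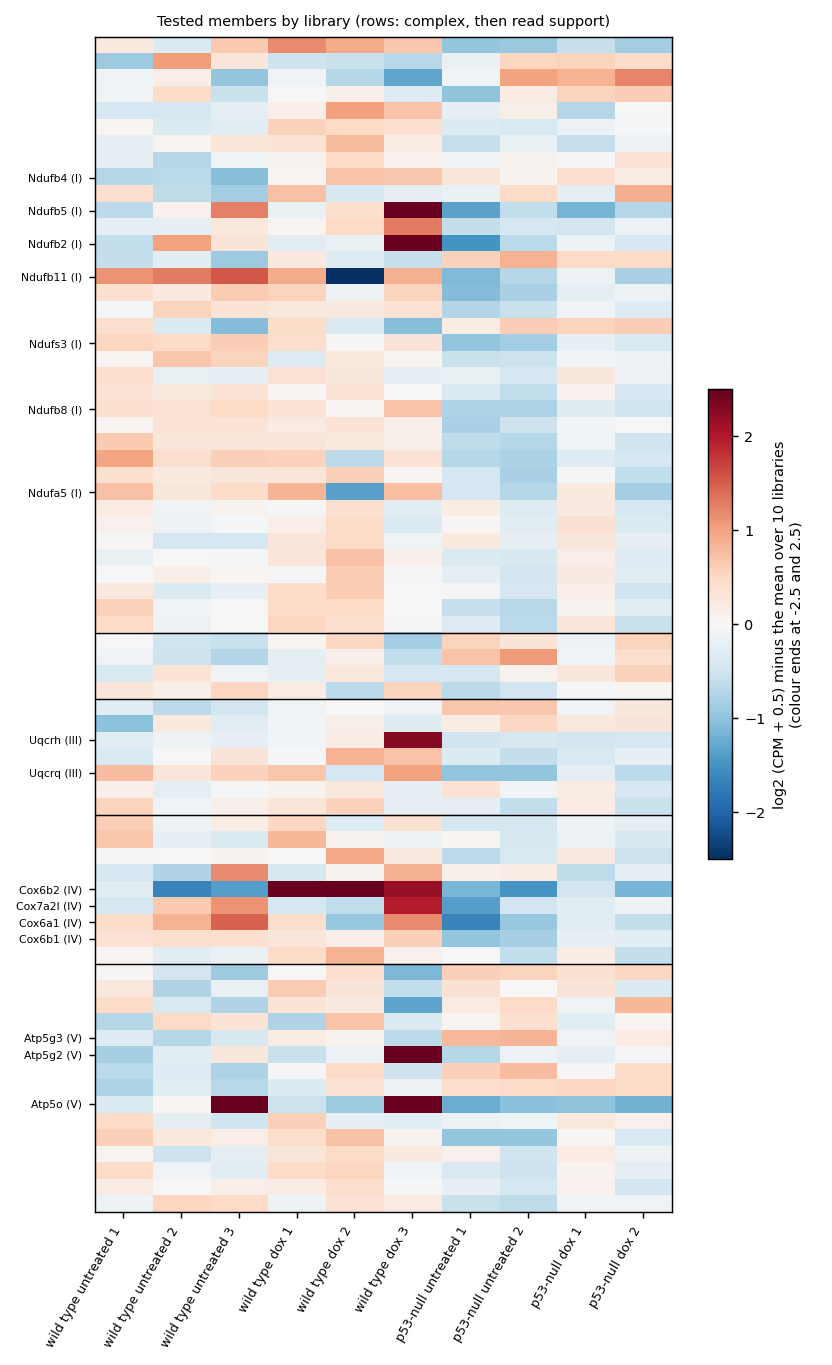
Level of each of the 71 tested subunit genes (rows, by complex and then by read support) in each of the 10 libraries (columns), as log2 (CPM + 0.5) minus the mean over libraries, with 16 genes labelled and colours ending 2.5 above and below that mean. Cox6b2 is dark red in the 3 treated wild-type libraries, Atp5o in both wild-type libraries numbered 3, and Ndufb11 dark blue in 1 library.

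Isoform pairs show where the change in Cox6b2 sits. Cox6b2 made up 2.84, 1.01 and 1.29% of the reads of the Cox6b1 and Cox6b2 pair in untreated wild type and 21.1, 19.7 and 12.2% in treated wild type. In p53-null cells it made up 3.89 and 2.76% untreated and 3.64 and 2.35% treated. Reads at the 3' end are counted per transcript end, and the shares compare these genes only as read counts.
Cox6b1 itself, at 888, 939 and 907 CPM untreated and 853, 776 and 1044 CPM treated in wild type, had a log2 fold of -0.04 (SE 0.16). Cox6b1 libraries of the 2 groups overlapped.
The muscle and lung forms of the other pairs were near the limit of detection. Cox4i2, the lung form, gave 0.041 to 0.119% of the Cox4i reads, and Cox4i1 the rest, with Cox4i1 at 2592, 2036 and 2215 CPM untreated and 3432, 4543 and 2694 CPM treated in wild type (log2 fold 0.62, SE 0.28, adjusted p = 0.185). Cox6a2, the muscle form, had 6 to 20 reads per library, and Cox7a1, another muscle form, 16 to 60. Cox7a2 had 59 to 256 reads, and Cox7a2l, a supercomplex factor, gave 67.7 to 93.2% of the reads of the 3 Cox7a genes.
Ndufa4l2 gave 10 to 21.8% of the reads of the Ndufa4 pair in wild-type libraries, against 4.14 to 6.64% in p53-null libraries, which is the genotype difference of Ndufa4l2 seen from its partner. Among the 3 genes for subunit c, Atp5g1 had 0 to 22 reads, and Atp5g3 gave 68.6 and 75.7% of the reads in untreated p53-null cells and 40.6 to 61% in untreated wild type.

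The genes not tested were Atp5g1, Ndufs5 (an accessory subunit of complex I, 1 to 13 reads per library) and Cox7b2 (a testis form of subunit VIIb, 0 to 2 reads). Of the 3 treated wild-type libraries, Cox7b2 had 1 read in 1 and 0 in the other two. A count of 0 there allows up to 3 reads per library, so a low level is not detectable at this depth.

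Subunit genes outside the symbol rule gave 12 tested genes. In wild type with doxorubicin 1 was higher and 0 lower, and between untreated genotypes 2 were higher and 2 lower in wild type. These are 8.33% and 0% in treated wild type (8.03% and 4.55% of all tested genes) and 16.7% on each side between genotypes (12.8% and 20.4% of all). Cox5b, a complex IV subunit, had 4.53, 2.34 and 1.24 CPM untreated and 10.3, 5.40 and 13.0 CPM treated in wild type (log2 fold 1.70, SE 0.47, adjusted p = 0.0392), and 16.2 and 9.63 CPM in untreated p53-null cells. Cycs, cytochrome c, was lower in untreated wild type (28.0, 22.2 and 22.1 CPM against 65.4 and 62.0 CPM, log2 fold -1.39, adjusted p = 0.00474), and Atpif1, the ATP synthase inhibitor, was higher (1.10, adjusted p = 0.0314).

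Among 25 tested assembly factors, 2 were higher and 1 lower in treated wild type, and 3 were higher and 3 lower between untreated genotypes. These shares, 8% and 4% with treatment and 12% on each side between genotypes, were at or below those of all tested genes (8.03% and 4.55%, 12.8% and 20.4%). Sdhaf1, which helps to insert iron-sulfur clusters into Sdhb, had 1.19, 0.719 and 1.35 CPM untreated and 5.05, 7.54 and 6.08 CPM treated in wild type (log2 fold 2.09, SE 0.29, adjusted p = 0.00143). In p53-null cells it had 2.26 and 1.41 CPM untreated and 1.75 and 1.67 CPM treated. Cox19, a copper carrier for complex IV, fell in wild type from 61.2, 67.2 and 65.1 CPM to 35.9, 36.6 and 38.0 CPM (-0.80, SE 0.17, adjusted p = 0.0138). Ndufaf4, a complex I factor, was lower in untreated wild type than in p53-null cells (-1.50, adjusted p = 0.0128).

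Among 17 tested regulators of mitochondrial biogenesis, 1 was higher and 2 were lower in treated wild type (5.88% and 11.8%, against 8.03% and 4.55% of all tested genes). Between untreated genotypes 3 were higher and 4 lower in wild type (17.6% and 23.5%, against 12.8% and 20.4%). Esrra, the estrogen-related receptor alpha that acts on genes of oxidative metabolism, had 61.5, 40.4 and 47.8 CPM untreated and 203, 202 and 179 CPM treated (log2 fold 1.97, SE 0.20, adjusted p = 0.000203). In p53-null cells it had 34.2 and 32.8 CPM untreated and 51.5 and 43.7 CPM treated. Nrf1, a factor for promoters of respiratory genes, fell from 5.12, 9.26 and 19.7 CPM to 0.374, 0.651 and 1.96 CPM (-2.94, SE 0.50, adjusted p = 0.0049), and the coactivator gene Pprc1 from 135, 150.0 and 163 CPM to 49.2, 75.7 and 64.7 CPM (-1.25, SE 0.20, adjusted p = 0.00308). The groups were apart for all 3.

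Of 22 tested genes of the TCA cycle and pyruvate dehydrogenase, 0 passed with doxorubicin in wild type, beside 8.03% higher and 4.55% lower of all tested genes. At an unadjusted p under 0.05 (limma-trend) stood 3 of the 22 and 3007 of all 11177 tested genes. In untreated cells, 4 were higher and 5 lower in wild type than in p53-null cells (18.2% and 22.7%, against 12.8% and 20.4% of all tested genes). Idh3b, of the NAD-linked isocitrate dehydrogenase, was higher (1.14, adjusted p = 0.015), and the pyruvate dehydrogenase genes Pdhb (-2.34, adjusted p = 0.00773) and Dlat (-1.50, adjusted p = 0.00993) were lower. Of 20 tested glycolysis genes, 1 was higher and 2 lower in treated wild type (5% and 10%, against 8.03% and 4.55%), and 3 were higher and 2 lower between untreated genotypes (15% and 10%, against 12.8% and 20.4%). Eno2, the neuronal enolase, rose (1.28, SE 0.24, adjusted p = 0.00766) and Hk2, a hexokinase, fell from 17.4, 36.0 and 21.6 CPM to 7.20, 7.26 and 6.18 CPM (-1.72, SE 0.28, adjusted p = 0.00346). Pfkp, a phosphofructokinase, was lower in untreated wild type than in p53-null cells (-1.61, adjusted p = 0.01).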

How the data were processed

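RNA was sequenced in 10 libraries by a 3' end protocol, per the labels' protocols. The authors deposited 1 value per gene, a score close to log2 made with DESeq on build mm9, per the submitters' processing notes, with no version. For aligner, strand and annotation the entry is: not given in the sources used here. Whole reads were recovered from the common curve of these scores (99.96% of 22112 distinct values within 0.01 of a whole read, and the 8 others at 178577 reads or more). A count model was not the main test, because the recovered reads are computed values. The p53 ChIP-seq data were not used here. Library scaling was TMM (30% and 5% trimmed), and genes with at least 1 CPM in 2 libraries (11177) were kept. limma-trend (R 4.3.3, limma 3.58.1) was run on log2(CPM + 0.5) with 1 mean per group over 10 libraries. The pseudocount makes changes of low genes look smaller. Two-sided p-values were adjusted by Benjamini-Hochberg over all tested genes, with a threshold of 0.05. Scripts were tested on simulated data.

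Same-numbered wild-type libraries deviated together (correlations 0.58, 0.34 and 0.61 across genes). The numbers were taken as pairs in the blocked fit only, and the main fit did not pair libraries. Across the tested subunit genes the correlations were 0.68, 0.15 and 0.74, so number 2 was weak there. In p53-null cells the correlation was 0.38. With 2 libraries per group, deviations from the group mean mirror each other. Both numbers therefore give the same value, which cannot tell whether each of them is a pair. The blocked fit is given where it moves a count by over 1.5 times.

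Members and lists were chosen with earlier results of these data known. 1 member is counted throughout and is not reported by name here. Named were all other members past the threshold, the extremes of each complex in treated wild type and between untreated genotypes, isoform pairs, untested members and up to 3 genes per list by adjusted p. Genes named for non-overlapping groups, single libraries or the replicate block were chosen after their values were seen. Motifs were searched on both strands in RefSeq windows. Of 74 members, 3 were matched by synonym.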

Additional observations from a re-analysis of the deposited data

Results flagged for a closer look

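The doxorubicin response differed between wild-type and p53-null cells, by the test of the difference itself, for 4 genes named here. Of all tested genes, 1.89% differed on the higher side and 0.447% on the lower. For Cox6b2 the wild-type response was higher by 3.14 on the log2 scale (SE 0.57, adjusted p = 0.0237, limma-trend). For Sdhaf1, the complex II assembly factor, it was higher by 2.14 (SE 0.45, adjusted p = 0.0416). For Esrra it was higher by 1.48 (SE 0.31, adjusted p = 0.0423). For Cox19 the difference was -1.32 (SE 0.27, adjusted p = 0.0358), with 61.2, 67.2 and 65.1 CPM going to 35.9, 36.6 and 38.0 CPM in wild type and 21.6 and 24.8 CPM going to 33.8 and 33.2 CPM in p53-null cells. The Cox6b2 difference missed the threshold in 9 of 22 alternatives. Alternatives for Sdhaf1, Esrra and Cox19 are not given, and Sdhaf1 had only 0.719 to 1.35 CPM in untreated wild type.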

How the results depend on the processing

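Counts of subunit genes past the threshold changed as follows. Without a filter on low levels the response difference had 0 and the treated genotype comparison 2. That comparison also had 2 with a filter of at least 10 CPM, 2 with only the groups compared and 2 without both wild-type libraries numbered 3, a fit added after seeing the data that left 1 in treated wild type. With the replicate block, treated wild type had 6 and the response difference 3, and no other call moved by over 1.5 times. Without both p53-null libraries numbered 2, the response difference had 0, the untreated genotype comparison 1 and the treated one 1, and the median differences were -0.24 (responses) and 0.14 (treated genotypes). Leaving out each library in turn gave 2 to 3 in treated wild type, 0 to 0 in treated p53-null cells, 0 to 1 for the response difference, 2 to 28 between untreated and 1 to 8 between treated genotypes. The medians ranged over 0.07 to 0.26, 0.17 to 0.35, -0.28 to 0.08, 0.27 to 0.39 and 0.15 to 0.43 in the same order. Counts with libraries left out have no shares of all tested genes beside them, and some fits leave a p53-null group without replicates. Library size alone gave medians of -0.07 (untreated genotypes) and 0.08 (treated genotypes), and upper quartile scaling 0.14 for the former. The deposited scores gave 0.43 in treated p53-null cells, 0.55 between untreated and 0.58 between treated genotypes. With library size alone, sums were 9354 and 8123 CPM in complex I, 316, 269 and 372 CPM in complex II (untreated wild type, untreated and treated p53-null), 3110.4 CPM (treated wild type) and 2646 CPM (untreated p53-null) in complex III, 3813 and 4954.5 CPM in complex IV of wild type, and 6906 and 5990.0 CPM in complex V without treatment. Upper quartile scaling gave 7348 CPM for complex V in untreated wild type. Leaving out 1 library changed the sign of folds of Uqcrq (-0.49 to 0.28), Atp5f1 (-0.61 to 0.15), Sdhb (-0.61 to 0.04), Sdhd (-0.06 to 0.58) and Atp5g2 (-0.14 to 1.54) in treated wild type and of Cox7a2 (-0.75 to 0.22) between untreated genotypes, and for Atp5f1 also without both wild-type libraries numbered 3 (0.09). The causes were not tested. With 2 p53-null libraries per group, small differences are not detectable, and genes near 1 CPM rest on few reads.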
